A study of Homo sapiens with 12 samples.

Results

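The E2F and retinoblastoma family is described here by 10 genes, E2F1, E2F2, E2F3, E2F5, E2F7, E2F8, TFDP1, RB1, RBL1 and RBL2, of 22392 genes measured on 12 Human Gene 2.1 ST arrays. They were taken by gene symbol, and each was read by 1 probe set that carries no other symbol. The arrays measured HCC38, an established triple-negative breast cancer cell line, in 4 groups of 3 samples. The groups received erastin plus tubacin (E + T), erastin, tubacin or, as control, the solvent DMSO, each drug at 5 µM and for 18 h according to the sample labels (the methods give a longer time). Erastin blocks the import of cystine, and tubacin inhibits the deacetylase HDAC6. The comparison asks how transcripts respond when tubacin is added to erastin. The methods describe treatment in triplicate, without saying whether the cultures were separate, so the p-values may reflect technical spread only.

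E2F factors are transcription factors that bind DNA mostly as dimers with a DP protein and control the genes of S phase entry. RB1, RBL1 and RBL2 encode the pocket proteins, which hold E2F factors in a repressive complex until cyclin-dependent kinases phosphorylate them. The resulting wave of E2F activity carries cells past the restriction point, and the loss of this brake is a common event in cancer, including triple-negative breast cancer. E2F1, E2F2 and E2F3 are the activators of the family. E2F5 is a repressor that acts with pocket proteins, E2F7 and E2F8 are atypical repressors that bind DNA without a DP partner, and TFDP1 encodes the main DP partner. Several of these genes are targets of E2F factors themselves.

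RefSeq promoter windows, which run from 250 bases before to 50 bases after a transcription start on GRCh38.p14, were at hand for 8 of the 10 genes, all except E2F5 and E2F8. The windows were searched on both strands for an E2F motif, spelled TTTCCCGC, TTTGGCGC, TTTCGCGC or TTTGCCGC. It was present for 5 of the 8 genes (62.5%), against 3.31% of all 35116 windows and 3.99% of the 27305 genes with a window. The stretches around the motif are shown because E2F factors are known to regulate several genes of their own family. Whether they do so through these matches was not tested. The stretches read in the direction of the gene, with the E2F motif, or its reverse complement, in capitals.
E2F1: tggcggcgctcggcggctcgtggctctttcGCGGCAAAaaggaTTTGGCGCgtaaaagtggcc
E2F2: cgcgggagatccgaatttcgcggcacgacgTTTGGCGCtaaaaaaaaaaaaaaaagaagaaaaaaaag
E2F3: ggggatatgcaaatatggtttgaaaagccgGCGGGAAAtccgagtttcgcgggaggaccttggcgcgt
TFDP1: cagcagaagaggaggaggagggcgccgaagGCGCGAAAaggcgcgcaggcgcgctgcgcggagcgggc
RBL1: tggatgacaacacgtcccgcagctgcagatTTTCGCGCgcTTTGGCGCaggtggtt

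The E2F1 stretch lies at chr20:33686386-33686448 on the minus strand and holds 2 motifs within the last 33 bases before the start. The RBL1 stretch lies at chr20:37095998-37096053 on the minus strand, also with 2 motifs, the nearer one ending 9 bases before the start. The E2F2 stretch is at chr1:23531238-23531305 (minus strand), the E2F3 stretch at chr6:20401796-20401863 (plus strand) and the TFDP1 stretch at chr13:113584603-113584670 (plus strand), with 1 motif each. The E2F3 stretch comes from the first of its 2 windows. None of these matches overlapped a match of the other motifs searched, which were the cell cycle homology element CHR (TTTGAA or TTCGAA), the CCAAT box (CCAAT) and the GC box (GGGCGG). The window of E2F7 held 4 CCAAT boxes and 3 GC boxes, against shares of 34.6% and 45.0% of all windows with at least 1. The window listed for RB1 belongs to a start near the far end of the gene and held none of the motifs. The CHR element was found for E2F3 and RBL2, against 16.4% of all windows. A match is a run of letters and no measurement of binding, and these arrays did not measure binding.

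The values are the deposited RMA values on the log2 scale, on which a difference of 1 is 2-fold. The 12 arrays were much alike, with medians between 3.06 and 3.12 and a correlation over genes of 0.991 to 0.994 within groups and 0.975 to 0.993 between groups. By their means over all 12 samples, all 8 epithelial markers measured lay above the median gene level of 4.58, and neither ESR1 nor PGR did. Of the markers of other cells, 2 of 5 for fibroblasts, 2 of 4 for leukocytes and 0 of 3 for endothelium lay above it. The mean of the epithelial markers was 9.01 to 9.11 over the E + T samples, 8.62 to 8.74 with erastin, 8.67 to 8.71 with tubacin and 8.62 to 8.69 in control. Among them KRT8 rose by 0.83 and CLDN4 by 0.77 with E + T. The mean of the fibroblast markers was 4.65 to 4.76 with E + T, 4.41 to 4.52 with erastin, 4.63 to 4.81 with tubacin and 4.90 to 5.02 in control, and its members went both ways with E + T, PDGFRB at 0.85, COL1A1 at -0.77 and COL1A2 at -0.84. The mean of the leukocyte markers was 4.10 to 4.22 with E + T, 3.85 to 3.90 with erastin, 3.91 to 3.96 with tubacin and 3.83 to 4.07 in control, with CD68 higher (1.87) and CD14 lower (-1.05) with E + T. None of the endothelial and hormone receptor markers was called with E + T. The part of these differences in the results below was not tested. In bulk RNA, fewer cells of a type or phase and less RNA per cell cannot be told apart.

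Erastin plus tubacin lowered most of the family. Of the 10 genes 9 fell against control at an adjusted p under 0.05 (limma, Benjamini-Hochberg over all genes), and none rose. In all 9 the E + T samples lay below every control sample. The share of all genes separated in this way is not given here, so the separation adds nothing to the calls. Over all genes 17.1% were called lower and 14% higher in this comparison. The median change of the family was -0.58 on the log2 scale, against -0.01 over all genes. The falls differed in size, as E2F8 fell to 22.5% of its control level, E2F1 to 48.2%, and the pocket protein genes to between 80.0% and 83.9%. With erastin alone 1 of the 10 genes was called lower, E2F8, and none higher, beside 4.41% and 3.94% of all genes. With tubacin alone limma called none of the 10 in either direction, with none at an unadjusted p under 0.05, beside 0.125% of all genes called lower and 0.107% higher. The comparisons with control share the same 3 control samples. These directions hold with the normalization as deposited and when the arrays are scaled to 7 reference genes, but not when they are scaled to ACTB, where E2F8 alone of the 9 stays lower. The probe set read for ACTB fell by 1.19 with E + T (adjusted p = 0.00131), so that this scaling raises every gene by 1.19. The 7 reference genes were not all steady with E + T either. PGK1 (0.57) and GAPDH (0.21) were called higher, and PPIA (-0.59) and HPRT1 (-0.35) lower. TBP, GUSB and B2M were not called.

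**Figure D1:**
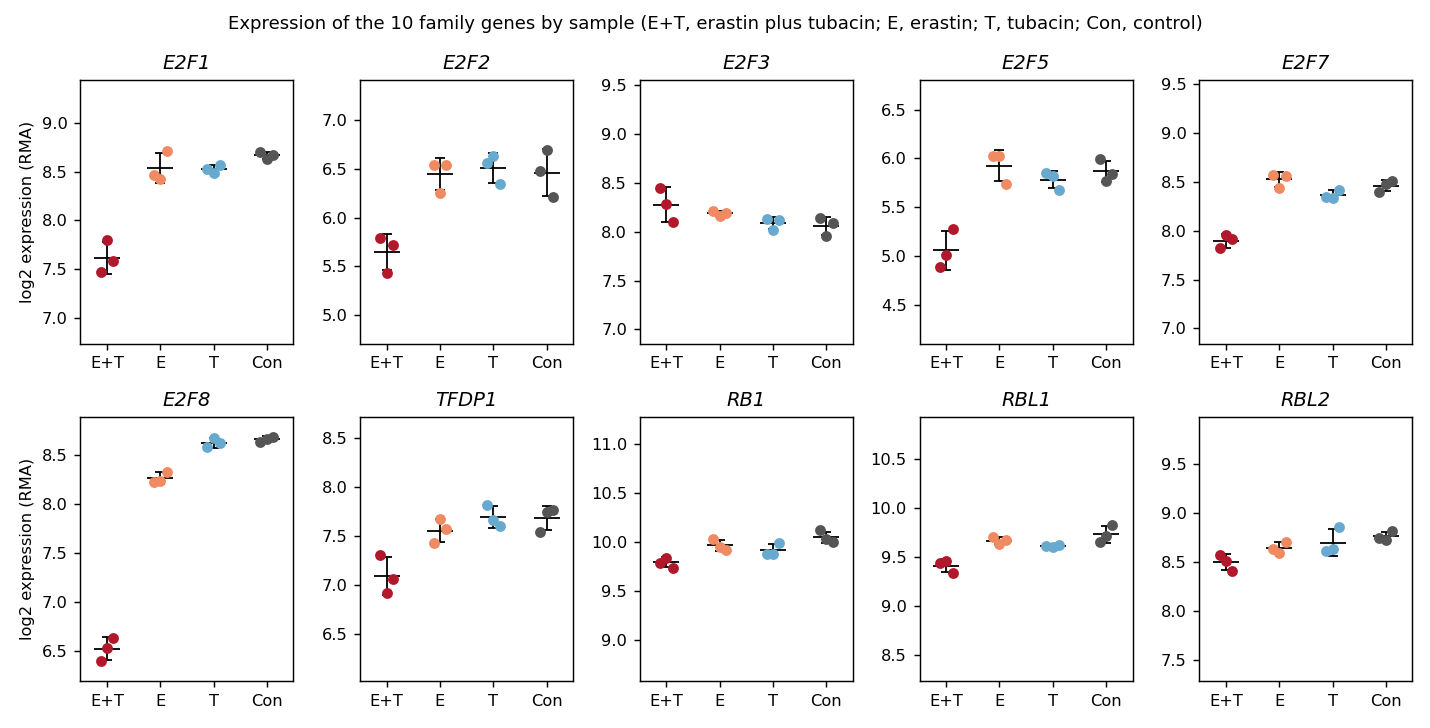
The log2 expression (RMA) of the 10 genes in each of the 12 samples, with the group mean as a bar and the SD as error bars (n = 3 per group); every panel spans the same range of log2 units. The E + T samples of E2F8 lie at 6.39 to 6.63, below all other samples, whereas those of E2F3 reach 8.45 and lie among or above the control samples.

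Of the activators, E2F1 and E2F2 fell and E2F3 did not. E2F1, which drives S phase genes and can also induce apoptosis genes, had values of 7.47, 7.80 and 7.58 with E + T. The values were 8.47, 8.42 and 8.71 with erastin, 8.53, 8.49 and 8.57 with tubacin, and 8.70, 8.63 and 8.67 in control. All E + T samples were therefore below all others, and the change against control was -1.05 (SE 0.10, adjusted p = 1.51e-05). E2F1 was also lower with E + T than with erastin (-0.92) and than with tubacin (-0.91). With tubacin alone its 3 values lay just below the control values without being called (-0.14, 95% confidence interval -0.36 to 0.08, adjusted p = 0.685).

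E2F2 had values of 5.79, 5.43 and 5.72 with E + T, of 6.54, 6.25 and 6.54 with erastin, of 6.56, 6.63 and 6.34 with tubacin, and of 6.48, 6.69 and 6.21 in control. The groups other than E + T overlapped one another, and E + T lay below them all (-0.81 against control, SE 0.15, adjusted p = 0.00138). E2F2 had the widest spread of the family within control (SD 0.24, n = 3) and accordingly the largest SE.

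E2F3 had values of 8.45, 8.28 and 8.10 with E + T, of 8.21, 8.16 and 8.19 with erastin, of 8.13, 8.02 and 8.12 with tubacin, and of 8.14, 7.96 and 8.09 in control. Its E + T samples overlapped the control samples, and the change of 0.22 (SE 0.09) was not called (adjusted p = 0.109). Its 95% confidence interval ran from 0.01 to 0.42. Without replicate 3 of E + T, the lowest of the 3, the change was 0.30 with an adjusted p of 0.0279, and a filter on dim genes or trended and robust moderation also gave a call (adjusted p = 0.043 and 0.0483). All 3 activator genes carry the E2F motif in the promoters shown above, so its presence did not separate E2F3 from E2F1 and E2F2.

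A comparison within each array does not depend on how the arrays are scaled, and was made for pairs of family genes chosen after their values were seen. The difference E2F1 minus E2F3, set to a mean of 0 in control, was -1.59, -1.09 and -1.13 with E + T. It was -0.35, -0.34 and -0.09 with erastin, -0.21, -0.14 and -0.16 with tubacin, and -0.05, 0.07 and -0.02 in control. Each treatment thus lay below control for this pair. The exact permutation p was 0.1 for each, the smallest two-sided p that 3 against 3 can give. As the pair was chosen from these values, this test cannot decide whether it differs, and no conclusion is drawn from it.

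Of the repressors, E2F8 changed most. Its values were 6.39, 6.53 and 6.63 with E + T, 8.23, 8.24 and 8.33 with erastin, 8.58, 8.68 and 8.62 with tubacin, and 8.64, 8.67 and 8.69 in control. E2F8 was 4.44-fold lower with E + T than in control (-2.15, SE 0.08, adjusted p = 4.51e-08). It was the only gene of the family called with erastin alone, at -0.40 (SE 0.08, adjusted p = 0.00942), and every erastin sample was below every tubacin and control sample. With tubacin alone the change was -0.04, with a confidence interval of -0.21 to 0.13. Set against erastin alone E + T lowered it by a further 1.75, and set against tubacin alone by 2.11.

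E2F7, the other atypical repressor, had values of 7.82, 7.96 and 7.91 with E + T, of 8.57, 8.44 and 8.56 with erastin, of 8.34, 8.33 and 8.42 with tubacin, and of 8.40, 8.48 and 8.51 in control. It fell by 0.56 with E + T (SE 0.07, adjusted p = 0.000133), and its change with erastin alone was 0.06 (adjusted p = 0.681). The pair was compared within arrays as above. E2F8 minus E2F7 was -1.63, -1.63 and -1.49 with E + T, -0.55, -0.40 and -0.43 with erastin, 0.04, 0.15 and -0.01 with tubacin, and 0.03, -0.01 and -0.02 in control. The difference lay below every control value in every E + T and every erastin sample, and the tubacin samples overlapped control. With erastin alone E2F7 itself did not fall (0.06). The exact permutation p was 0.1 with E + T and with erastin, again the smallest possible, and 0.3 with tubacin. It cannot decide here either, as this pair was also chosen from its values.

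E2F5 encodes a repressor that works with RBL2 and lacks the cyclin A binding end of the activators. It had values of 4.89, 5.01 and 5.28 with E + T, of 6.02, 6.02 and 5.74 with erastin, of 5.85, 5.82 and 5.68 with tubacin, and of 5.99, 5.77 and 5.84 in control. E + T lay apart from the other groups, which overlapped one another, and the change against control was -0.81 (SE 0.12, adjusted p = 0.000339). TFDP1, the dimer partner of E2F1 to E2F6, had values of 7.30, 6.91 and 7.06 with E + T, of 7.43, 7.67 and 7.57 with erastin, of 7.82, 7.66 and 7.60 with tubacin, and of 7.54, 7.74 and 7.76 in control. It fell by 0.59 with E + T (SE 0.12, adjusted p = 0.0023), with replicate 1 of E + T nearest to the other groups. The call against control ended with the methods' t-test after Benjamini-Hochberg adjustment (adjusted p = 0.0516).

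The 3 pocket protein genes changed least among those called. RB1, the retinoblastoma tumor suppressor, had values of 9.79, 9.84 and 9.74 with E + T, of 10.03, 9.95 and 9.92 with erastin, of 9.88, 9.88 and 9.99 with tubacin, and of 10.12, 10.03 and 10.00 in control. RBL1 encodes p107, a pocket protein made mainly in cycling cells, and had values of 9.44, 9.46 and 9.33 with E + T, of 9.70, 9.63 and 9.67 with erastin, of 9.61, 9.60 and 9.62 with tubacin, and of 9.65, 9.71 and 9.83 in control. RBL2 encodes p130, the pocket protein of quiescent cells, and had values of 8.57, 8.51 and 8.41 with E + T, of 8.63, 8.59 and 8.71 with erastin, of 8.61, 8.63 and 8.86 with tubacin, and of 8.75, 8.73 and 8.82 in control. In all 3 the E + T samples lay below every sample of the other groups, by narrow gaps. The share of all genes separated like this is not given here either, so it adds nothing to the calls.

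With E + T the change against control was -0.25 for RB1 (SE 0.07, adjusted p = 0.0159), -0.32 for RBL1 (SE 0.07, adjusted p = 0.00441) and -0.27 for RBL2 (SE 0.08, adjusted p = 0.0344). The call of RBL2 ended without replicate 2 or 3 of E + T (adjusted p = 0.0738 and 0.114) or without replicate 1, 2 or 3 of control (0.0615, 0.0581 and 0.1). That of RB1 ended without replicate 3 of E + T (0.0552) or replicate 1 of control (0.0501). Scaled to the reference genes none of the 3 was called, at -0.19 for RB1, -0.26 for RBL1 and -0.20 for RBL2. RBL1 minus RB1, compared within arrays as above, was -0.04, -0.07 and -0.09 with E + T and -0.14, 0.00 and 0.14 in control, so these groups overlapped (exact permutation p = 0.6).

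**Figure D2:**
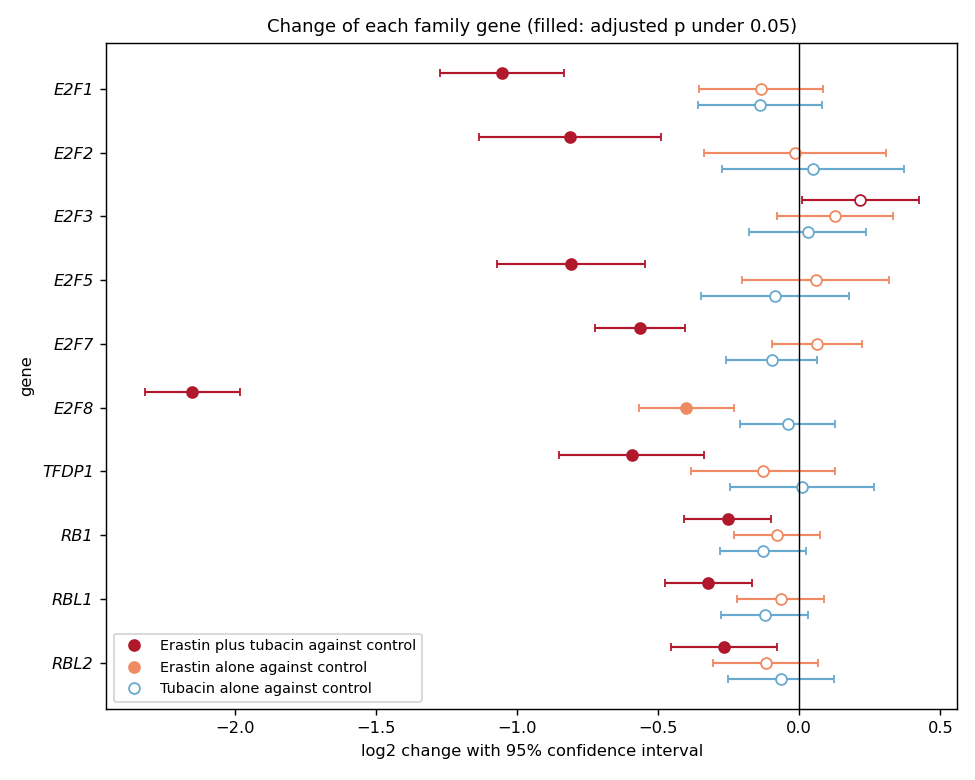
The log2 change of each gene against control (x axis) with its 95% confidence interval, for E + T (top of each row), erastin and tubacin, from the fit of all 12 samples with n = 3 per group; filled points have an adjusted p under 0.05. With E + T 9 of the 10 points are filled and lie between -2.15 and -0.25, and with either drug alone the filled point is that of E2F8 with erastin at -0.40; scaled to ACTB every E + T point would move right by 1.19.

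The combination was also set against each drug. Against erastin alone 7 of the 10 genes were lower and none higher, beside 14.6% and 11.2% of all genes. These were E2F1, E2F2, E2F5 (-0.87), E2F7 (-0.63), E2F8, TFDP1 (-0.46, adjusted p = 0.0121) and RBL1 (-0.26, adjusted p = 0.0187). The call of TFDP1 ended without replicate 2 of E + T or of erastin (adjusted p = 0.0501 and 0.0519), and that of RBL1 without replicate 3 of E + T or replicate 1 or 3 of erastin (0.068, 0.0638 and 0.0523). The call of TFDP1 also ended with the methods' t-test after Benjamini-Hochberg adjustment (adjusted p = 0.0958), and that of RBL1 when scaled to the reference genes (-0.24, adjusted p = 0.111). RB1 (-0.17, adjusted p = 0.0948) and RBL2 (-0.15, adjusted p = 0.262) were not called. Against tubacin alone 6 of the 10 were lower and none higher, beside 15.9% and 12.3% of all genes. They were E2F1, E2F2 (-0.86), E2F5 (-0.72), E2F7 (-0.47), E2F8 and TFDP1 (-0.60), and RBL1 was near the threshold (-0.20, adjusted p = 0.0544). Scaled to ACTB these directions turn, except that of E2F8.

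Whether the combination differed from the sum of its parts was tested by the interaction, that is, by how far the E + T change departed from the added changes of the single drugs. It was lower for 5 of the 10 genes and higher for none, beside 8.84% and 6.2% of all genes. For E2F8 the separate changes summed to -0.44 and the interaction was -1.71 (SE 0.11, adjusted p = 1.07e-05). For E2F2 they summed to 0.03 and the interaction was -0.84 (SE 0.21, adjusted p = 0.0192). E2F1 and E2F5 had interactions of -0.78 each, with separate changes that summed to -0.27 for E2F1 and -0.03 for E2F5, and E2F7 had one of -0.53. E2F5 and E2F7 had a change of 0.06 each with erastin alone. The interaction of TFDP1 was -0.47 (adjusted p = 0.0803) and passed the threshold without replicate 1 of E + T (-0.58, adjusted p = 0.0329). For RB1 (-0.04), RBL1 (-0.14), RBL2 (-0.08) and E2F3 (0.06) the interaction was not called (adjusted p = 0.435 to 0.831). Scaled to ACTB the interaction stayed negative for E2F8 alone of the 5, without a call.

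**Figure D3:**
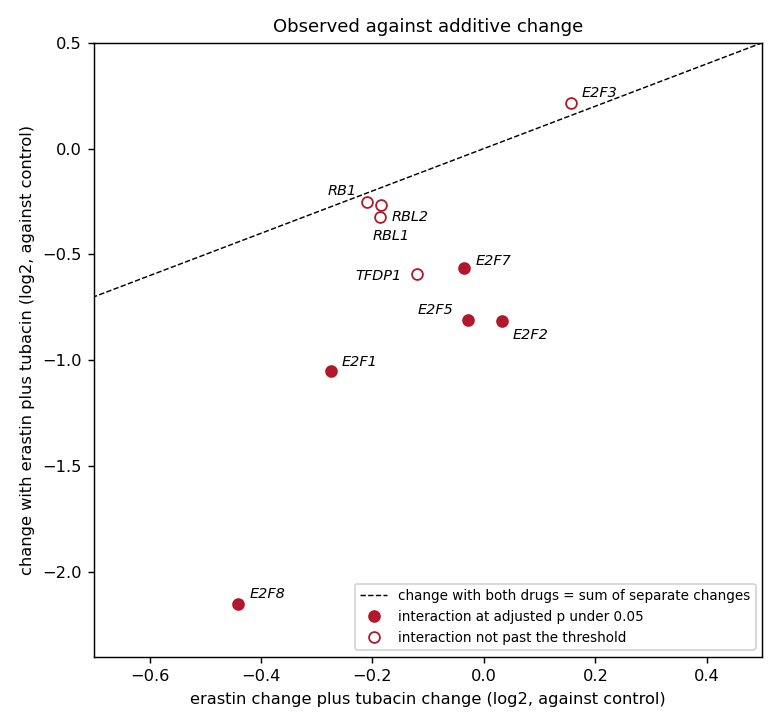
The log2 change with erastin plus tubacin (y axis) against the sum of the changes with erastin and with tubacin (x axis), each against control, for the 10 genes; the dashed line marks equality and filled points have an interaction at an adjusted p under 0.05. E2F8 lies farthest below the line, at -2.15 against a sum of -0.44, and RB1 and E2F3 lie close to it.

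The other genes of the family split in direction. E2F4, which encodes the main repressor partner of RBL1 and RBL2, had values of 8.78, 8.77 and 8.93 with E + T, of 9.54, 9.55 and 9.56 with erastin, of 9.64, 9.69 and 9.48 with tubacin, and of 9.57, 9.54 and 9.49 in control. It fell by 0.71 with E + T (adjusted p = 3.92e-05), a change that turns when scaled to ACTB. E2F6, a repressor that acts without pocket proteins, had values of 7.64, 7.96 and 7.73 with E + T, of 7.31, 7.21 and 7.30 with erastin, of 7.36, 7.43 and 7.45 with tubacin, and of 7.48, 7.33 and 7.25 in control. It rose by 0.42 (adjusted p = 0.00582) and was the only gene of the wider family called higher. Neither TFDP2 (0.16, adjusted p = 0.101) nor TFDP3 (0.04, adjusted p = 0.912) was called. Of the family genes beyond the 10, therefore, 1 of 4 fell and 1 rose, with a median change of 0.10, beside 17.1% of all genes called lower and 14% higher.

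Upstream of the pocket proteins, 10 of 12 measured cyclins, kinases and their activators fell with E + T and none rose, with a median of -0.999. The lowest were SKP2, the ubiquitin ligase subunit that degrades CDKN1B (-1.95), and CDC25A, the phosphatase that activates CDK2 (-1.87). CCND2 and CCND3 were not called. With erastin alone 3 fell, SKP2 (-0.71), CCNA2 (-0.46) and CDK1 (-0.43), and CCND1 rose (0.25), whereas CCND1 fell by 0.57 with E + T. Of 6 measured CDK inhibitors 2 rose with E + T, CDKN1A by 1.81 and CDKN1C by 1.46, and none fell, with a median of 0.02. CDKN1A, which encodes p21, had values of 6.50, 6.45 and 6.79 with E + T, of 5.32, 5.48 and 5.54 with erastin, of 4.75, 4.53 and 4.79 with tubacin, and of 4.55, 4.80 and 4.95 in control. It was thus higher with erastin alone as well (0.68, adjusted p = 0.01), as was CDKN1C (0.62, adjusted p = 0.0474), and the interaction was called for CDKN1A only (1.21). CDKN1B was lower with erastin alone (-0.43, adjusted p = 0.0173) and not called with E + T (-0.24, adjusted p = 0.0716). CDKN2A, CDKN2B and CDKN2D had changes of 0.05, -0.00 and -0.24 with E + T and were not called. Beside these counts, 17.1% of all genes were called lower and 14% higher with E + T. The shares were 4.41% and 3.94% with erastin alone. Scaled to ACTB the median of the cyclins and kinases with E + T turns. SKP2, CDC25A, CCNE2 (-1.54), CCNA2 (-1.46) and CDK1 (-1.35), which fell by more than 1.19, stay lower, and CDKN1A and CDKN1C stay higher.

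Downstream, 37 of 38 measured G1/S genes known as E2F targets fell with E + T and none rose, with a median of -1.12. CDCA7, a chromatin remodelling partner, fell by 2.05, and UHRF1, which guides maintenance DNA methylation, by 1.94, and GINS3 was not called (-0.15). With erastin alone 8 of the 38 fell and 1 rose, MCM6 (0.30), with a median of -0.12. The interaction was lower for 36 of the 38. Of the G2/M genes, which the MuvB complexes control, all 26 measured fell with E + T, with a median of -1.31, led by the mitotic kinesins KIF20A (-2.05) and KIF23 (-1.81). With erastin alone 25 of the 26 fell, with a median of -0.60, and PTTG1 was not called (-0.83, adjusted p = 0.0582). The shares of all genes called lower were 17.1% with E + T, 4.41% with erastin alone and 8.84% for the interaction. The E2F motif spelled above was present for 21 of 35 G1/S genes with a promoter window (60.0%) and for 2 of 23 G2/M genes (8.70%), whereas the CHR element was present for 3 of the 35 (8.57%) and 17 of the 23 (73.9%). Both lists hold genes long known to follow the cell cycle, and their members were not chosen without knowledge of these data. Scaled to ACTB the median with E + T of the G1/S genes turns and that of the G2/M genes stays negative.

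The partners of the pocket proteins moved both ways, as did all genes. Of these 17.1% were called lower and 14% higher with E + T, and 4.41% and 3.94% with erastin alone. Of 8 measured MuvB subunits and partners 4 fell with E + T, MYBL1 (-1.32), LIN9 (-1.14), FOXM1 (-1.07) and MYBL2 (-0.79), and 2 rose, LIN37 (0.72) and LIN54 (0.51), with a median of -0.42. MYBL2 and FOXM1 are the activators that take the place of pocket proteins on MuvB in later phases. LIN37 and LIN54 are subunits of its core, as are LIN9, which fell, and LIN52, which was not called (-0.05). The core therefore did not move in 1 direction. With erastin alone FOXM1 fell (-0.55) and LIN37 rose (0.40). Of 13 measured corepressors and chromatin partners 4 rose with E + T, led by the histone demethylases KDM5B (0.58) and KDM5A (0.38), and 6 fell, led by the histone methyltransferase SUV39H1 (-1.49) and the Polycomb-related PCGF6 (-0.84), with a median of -0.21. Of 6 apoptosis genes described as E2F targets 3 rose with E + T, BBC3 (1.70), BCL2L11 (1.21) and PMAIP1 (1.14), and CASP8 fell (-0.45), with a median of 0.51. The E2F1 transcript was lower in the same samples, and whether E2F1 had a part in these changes was not tested. With erastin alone PMAIP1 rose (1.11) and APAF1 fell (-0.38). With tubacin alone none of the genes in the lists around the family was called. The falls with E + T of under 1.19 turn when scaled to ACTB. That scaling moves changes with erastin alone by only 0.10, so the falls of FOXM1 and APAF1 there do not turn.

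**Figure D4:**
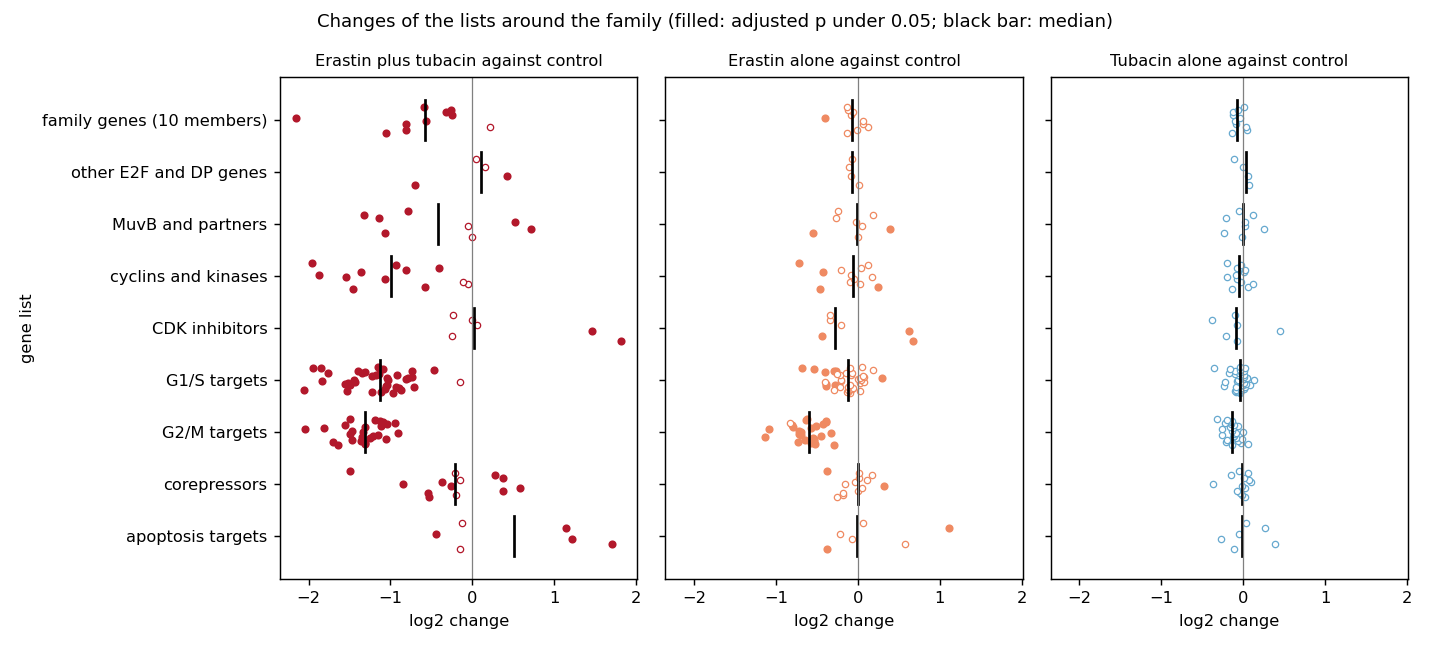
The log2 change of every measured gene (x axis) in the family and in the 8 lists around it (rows), with E + T, erastin or tubacin, each against control; filled points have an adjusted p under 0.05 and the black bar is the median of the list. With E + T the medians are -0.58 for the 10 genes, -1.12 for G1/S targets and -1.31 for G2/M targets, and with tubacin no point is filled; scaled to ACTB the E + T points would move right by 1.19.

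Across the 12 samples the genes with the pattern most like each family gene were found by Pearson correlation over all genes, as a description. The 12 points form 4 groups with E + T apart, so any gene that moved with E + T scores high. E2F8 was followed most closely by RRM2, a ribonucleotide reductase subunit (r = 0.998), by SNRPD1 (0.996) and by PAICS (0.996). E2F1 was most like REXO5 (0.990), SCML2 (0.988) and PROM1 (0.987), and TFDP1 most like FANCC (0.986), PDCD7 (0.966) and PRPS2 (0.957). The closest genes were SUPT16H (0.982), HNRNPA0 (0.980) and EXOSC8 (0.978) for E2F7, ID4 (0.973), BEND3 (0.972) and IVNS1ABP (0.971) for E2F5, and SETD3 (0.969), POLR1C (0.961) and COQ9 (0.953) for E2F2. For the pocket proteins they were SCAF11 (0.967), PHLPP2 (0.952) and ZNF280D (0.936) for RBL2, DERL2 (0.962), RNF150 (0.958) and PCBD2 (0.950) for RB1, and GTF3A (0.955), NFATC3 (0.953) and RARB (0.951) for RBL1. For E2F3 they were LCOR (0.913), LINC02649 (0.892) and PHYH (0.890). Within the family E2F8 and E2F1 had the highest correlation (0.969), and E2F3 had a negative one with each of the other 9, from -0.69 with E2F8 to -0.33 with RBL2.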

How the data were processed

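The authors hybridised RNA of HCC38 cells to Human Gene 2.1 ST arrays and normalized the arrays by RMA (methods and submitters' processing notes). Its version was not given in the sources used here. Deposited values are log2 values. RMA equalises the arrays, so a shift shared by all genes cannot be seen. All 12 columns were mapped by their labels; the source labels number the lines upward from HCC38 while titles and cell line entries give HCC38 throughout, which was used.

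Of 53617 probe sets 23866 carry exactly 1 gene symbol; for 630 genes with several, the brightest on average over the 12 samples was taken, which gave 22392 genes. Background and detection calls were not used. The number of arrays limits the precision (median SE of a change 0.14, of an interaction 0.19). In R 4.3.3 with limma 3.58.1 one model held the 4 group means, with eBayes moderation, 6 comparisons and Benjamini-Hochberg adjustment over all genes of each at 0.05, two-sided. The fit was tested on simulated data. Named beside the 10 genes are the 2 called genes with the highest and the 2 with the lowest change with E + T in each list, all other family genes and CDK inhibitors, and the 3 genes most like each family gene; genes behind counts of 5 or fewer were named after their values were seen. The lists were other E2F and DP genes, MuvB and partners, cyclins and kinases, CDK inhibitors, G1/S targets, G2/M targets, corepressors, apoptosis targets, and epithelial, hormone receptor, fibroblast, leukocyte and endothelial markers. The 10 genes and the lists were chosen with earlier results of these data known. The alternatives were a second normalization (quantile or cyclic loess), scaling to ACTB or to 7 reference genes, a filter on dim genes, every probe set, averaging a gene's probe sets, trended and robust moderation, a replicate block, a fit of only the groups compared, a threshold of 0.01, the methods' t-test, and leaving out each sample. Protein sequences were not analysed here.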

Additional observations from a re-analysis of the deposited data

Results flagged for a closer look

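For 5 of the 10 genes the change with E + T differed from the sum of the changes with erastin alone and with tubacin alone, by limma's test of the interaction. Of all genes 8.84% were called lower and 6.2% higher in this test. The interaction was -1.71 for E2F8 (adjusted p = 1.07e-05), -0.84 for E2F2 (adjusted p = 0.0192), -0.78 for E2F1 (adjusted p = 0.00375), -0.78 for E2F5 (adjusted p = 0.00956) and -0.53 for E2F7 (adjusted p = 0.00548). In all 5 each of the 3 E + T samples lay below all 9 other samples. How many of all genes were separated in this way is not given here, so the separation adds nothing to the calls.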

How the results depend on the processing

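With 3 arrays in a group, changes of about 0.3 on the log2 scale lay near the threshold. With E + T against control the calls of E2F8, E2F1, E2F2, E2F5, E2F7, TFDP1 and RBL1 held in all 12 fits that left out 1 sample. Those of RB1 and RBL2 did not. Over those fits the count of lower genes was 7 to 9 for E + T against control, 6 to 7 against erastin, 6 to 7 against tubacin and 5 to 6 for the interaction, and the count of higher genes was 0 to 1 against control and 0 to 1 against tubacin, the 1 being E2F3. The replicate numbers did not pair the samples (18 same-number pairs, correlation -0.06 to 0.05; 1 of 12 samples correlated best with its own number). With the replicate block the call of RBL2 with E + T against control was lost (-0.27, adjusted p = 0.0506), and no other call changed. A filter on dim genes gave 1 higher gene with E + T against control, and trended and robust moderation likewise 1 (E2F3 in each). These 2 settings also gained calls for RB1 against erastin (adjusted p = 0.0261 with the filter and 0.0124 with the moderation), for RBL1 (0.013 and 0.00604) and RBL2 (0.0395 and 0.0393) against tubacin, and for the TFDP1 interaction (0.0285 and 0.0303). The methods' t-test without adjustment gave 1 lower gene with tubacin alone, E2F1. Testing every probe set ended the calls of RB1 (adjusted p = 0.0535) and RBL2 (0.0856) with E + T against control, of RBL1 against erastin (0.0652) and of the E2F2 interaction (0.0505). Fitting only the groups compared ended those of RB1 (0.0767) and RBL2 (0.0748) against control and of RBL1 against erastin (0.0547), and cyclic loess normalization that of RBL2 (0.0752). Scaling to the reference genes moved the median of all genes by 0.06 with E + T and by 0.11 with tubacin alone. With E + T some reference genes were called higher and others lower, so the small shift averages opposite changes.

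Scaling to ACTB, whose own level was 6.12 in control, moved the median of all genes by 1.19 with E + T against control. It gave 5 higher and 1 lower genes with E + T against control, 0 lower with erastin alone, 5 higher and 1 lower against erastin, 4 higher and 1 lower against tubacin, and 0 lower for the interaction. Of all genes it called 90.9% higher and 0.272% lower with E + T against control. The shares were 90.0% and 0.156% against erastin, and 85.5% and 0.344% against tubacin. They were 0.451% and 0.067% with erastin alone, and 41.6% and 0.0938% for the interaction. Against control the scaling gave E2F1 0.14, E2F2 0.38, E2F5 0.38, E2F7 0.63, RB1 0.94, RBL1 0.87, RBL2 0.93 and TFDP1 0.60. Against erastin it gave E2F1 0.17, E2F2 0.29, E2F5 0.22, E2F7 0.46, RB1 0.92, RBL1 0.83, RBL2 0.94 and TFDP1 0.63. Against tubacin it gave E2F1 0.098, E2F2 0.15, E2F5 0.29, E2F7 0.54, RB1 0.89, RBL1 0.81, RBL2 0.81 and TFDP1 0.41. The interactions were E2F1 0.13, E2F2 0.065, E2F5 0.13 and E2F7 0.38. All these turned because the ACTB probe set itself fell with E + T.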
